A study of Mus musculus with 48 samples.

Results

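6DT1 and MVT-1 are transplantable mammary tumor lines of the FVB/N mouse strain, both listed as coming from a tumor of a genetically engineered mouse. Their 8 arrays, 4 independent tumors of each line, were selected by the sample titles from a set of 48 tumors that covers 12 mammary tumor models. Each line had been placed surgically in the number 4 mammary fat pad of an immunocompetent FVB/N host, and the tumor was removed at a diameter of 0.5 to 1.0 cm, trimmed of normal and dead tissue and frozen. The labels name no treatment for either group. According to the methods, MVT-1 was made from a mammary tumor of a mouse carrying both a Myc and a Vegf transgene under the MMTV promoter, while the transgene behind 6DT1 was not given in the sources used here. The methods give female hosts of the same strain, aged 6 to 8 weeks, for mammary tumor models that include MVT-1, and 6DT1 is not named in that passage. Each model is 1 cell line, so that a difference between the models is a difference between these lines as they grew in their hosts.

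The measurement was an Affymetrix Mouse 1.0ST array, which reads RNA from probes along the whole transcript, and every value below is a signal on the log2 scale for 1 of 19938 named genes. A tumor of this kind is a mixture of cancer cells with host cells. Myc is a transcription factor that drives growth and ribosome synthesis, and Vegfa is the secreted growth factor that draws in blood vessels. Mast cells store proteases in granules. Macrophages and natural killer cells take up or kill target cells, and they and the cancer cells answer interferon with a shared set of antiviral genes and with chemokines that attract T cells.

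Genes of fat and normal gland differed widely among the 6DT1 tumors. In replicates 2 and 3 of 6DT1 the fat hormone Adipoq stood at 12.55 and 12.74, and the milk protein gene Csn2 at 10.26 and 9.19. In replicates 1 and 4 Adipoq stood at 6.58 and 6.67, and Csn2 at 5.29 and 5.16. The MVT-1 tumors had Adipoq at 6.18, 9.78, 6.82 and 7.43, so that replicate 2 of MVT-1 held an intermediate level. Over the 10 adipocyte markers, the mean signal relative to all 48 tumors was 3.25 and 3.55 in replicates 2 and 3 of 6DT1, below -1.8 in its replicates 1 and 4, and between -1.64 and 0.95 in MVT-1. Replicate 3 of 6DT1 also carried genes of the cornified skin and the hair, with Krt1 at 10.95, Lor at 11.16 and Krt25 at 11.78. These 3 genes lay between 5.27 and 6.63 in the other 7 tumors, and they were picked after their values were seen. In bulk tumors, fewer cells of a type and less RNA per cell cannot be told apart. All comparisons were therefore made with all 4 tumors of 6DT1 and again with replicates 1 and 4 only, and the fat and gland genes in that repeat are a description, since the repeat was chosen for them.

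Luminal epithelial markers were unequal among the tumors. The simple-epithelium keratins Krt8 and Krt18 were bright in all 8 tumors, from 11.88 to 13.02 and from 11.51 to 12.17. The adhesion molecule Epcam was at 5.73 and 5.96 in replicates 1 and 4 of 6DT1, at 10.15 and 10.47 in replicates 2 and 3, and between 5.85 and 6.88 in MVT-1. The luminal regulators Elf5 and Foxa1 had the same order, since both stayed under 6.3 in replicates 1 and 4 of 6DT1 and were above 9 in replicates 2 and 3. Gata3, another luminal regulator, was bright in all 8 tumors, from 10.02 to 11.29. The adhesion molecule Cdh1 was at 7.77 and 8.34 in replicates 1 and 4 of 6DT1, at 10.29 and 10.65 in replicates 2 and 3, and from 8.19 to 8.76 in MVT-1. Esr1, the estrogen receptor, lay between 7.63 and 10.05, Kit between 7.27 and 10.57 and Cldn3 between 7.78 and 9.82, and all 3 were highest in replicates 2 and 3 of 6DT1 and above every array's median in the other tumors. The markers named here were picked after their values were seen.

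**Figure D1:**
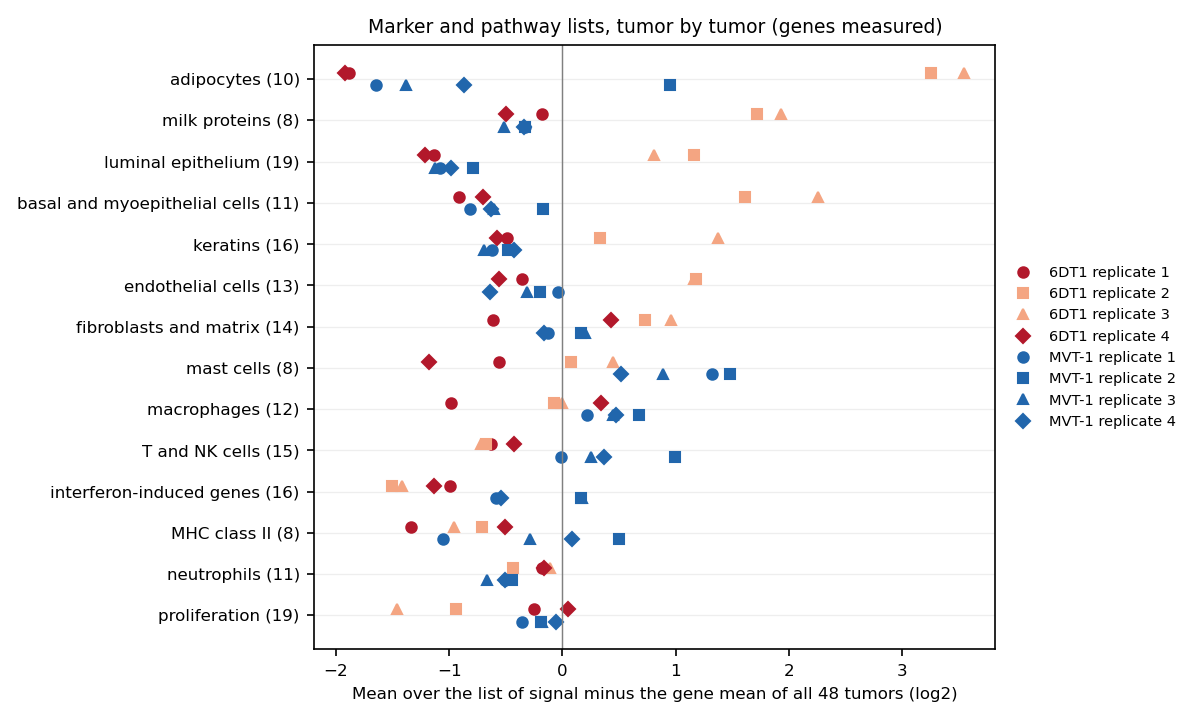
Each row is a list of genes, with the number measured in brackets, and each point is 1 tumor. The horizontal axis is the mean over the list of the log2 signal minus that gene's mean in all 48 tumors. 6DT1 replicates 2 and 3 (orange) lie above all other tumors for the fat, milk, luminal, basal and endothelial lists, and the 4 MVT-1 tumors (blue) lie above all 4 of 6DT1 for mast cells, T and NK cells and interferon-induced genes.

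The spread among tumors followed the same split. The median over genes of the standard deviation within a model was 0.185 in 6DT1, the highest of the 12 models, 0.0929 in MVT-1 and 0.0944 between replicates 1 and 4 of 6DT1 alone. Across genes, replicate 4 of 6DT1 correlated at 0.992 with replicate 4 of MVT-1, which was closer than its 0.986 with replicate 1 of its own model. Replicates 2 and 3 of 6DT1 correlated at 0.976 with each other, and replicates 1 and 3 at 0.898. These correlations are across genes, which are not independent replicates.

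6DT1 and MVT-1 differed at fewer genes than any other pair of the 5 FVB/N models. With 1 mean per model and the spread shared by all 12 models, limma called 2791 of 19938 genes at an adjusted p under 0.05, or 14.0%. Of these, 946 (4.74%) were higher and 1845 (9.25%) were lower in 6DT1. The other 9 FVB/N pairs ranged from 4090 genes for HRM-1 and MVT-1 to 7244 for 6DT1 and M6. Without 6DT1 replicate 1 or replicate 4, the count for 6DT1 and MVT-1 was 4378 or 4462, above that 4090. By the median size of the difference over all genes the order was not the same, since HRM-1 and MVT-1 differed by 0.135 and 6DT1 and MVT-1 by 0.139 on the log2 scale. The median difference over all genes was -0.02.

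**Figure D2:**
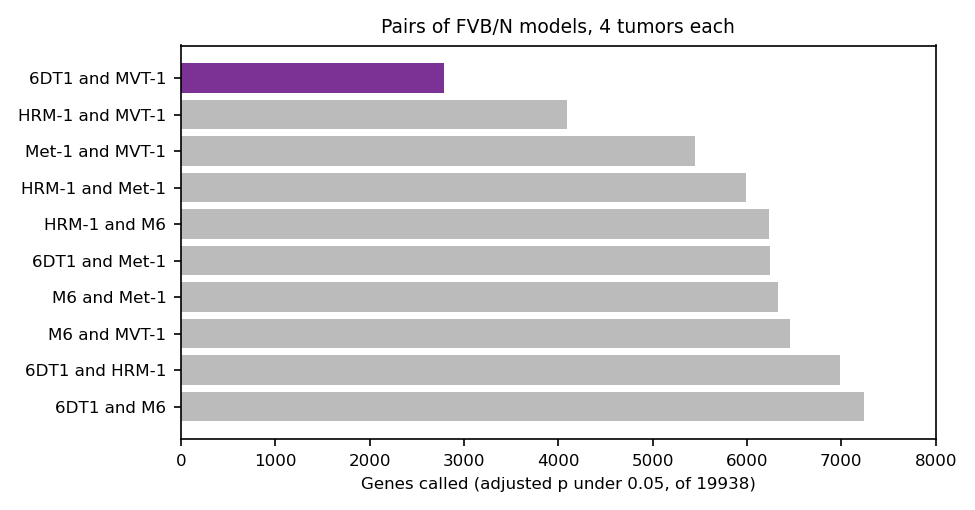
Bars give the number of genes called between each pair of FVB/N models, 4 tumors each, from 1 fit of 48 tumors. The pair of 6DT1 and MVT-1 (purple, 2791 genes) has the fewest and the pair of 6DT1 and M6 (7244) the most.

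The count depended on whose spread was used, and 6DT1 varied more than the other models. When only the 8 tumors were fitted, 77 genes passed, 12 higher (0.0602%) and 65 lower (0.326%) in 6DT1, or 0.386% of genes in all, and 75 of them had been called in the same direction with all 48 tumors. With 1 tumor left out of the fit of 48, the count of 2791 lay between 1426 without replicate 2 of 6DT1 and 4462 without its replicate 4. With replicates 1 and 4 of 6DT1 against the 4 MVT-1 tumors, 1815 genes (9.1%) passed, 838 higher (4.2%) and 977 lower (4.9%), and 178 passed when replicate 1 of 6DT1 was left out of that comparison. That split turned with the scaling, to 1231 higher and 751 lower after quantile normalization and to 1134 higher and 545 lower after each array was centred on its median. Both fits called 939 genes (4.71%) in the same direction, 281 higher (1.41%) and 658 lower (3.3%), and none in opposite directions. Groups that do not overlap were common. With 4 tumors against 4, 2659 genes (13.3%) did not overlap, 746 (3.74%) higher and 1913 (9.59%) lower, and 1618 (8.12%) were also called, 416 (2.09%) higher and 1202 (6.03%) lower. With replicates 1 and 4, 7170 genes (36.0%) did not overlap, 3559 (17.9%) higher and 3611 (18.1%) lower, and 1692 (8.49%) were also called, 798 (4.0%) higher and 894 (4.48%) lower. A gene called in both, and again with only the 8 tumors, is pointed out as such below.

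**Figure D3:**
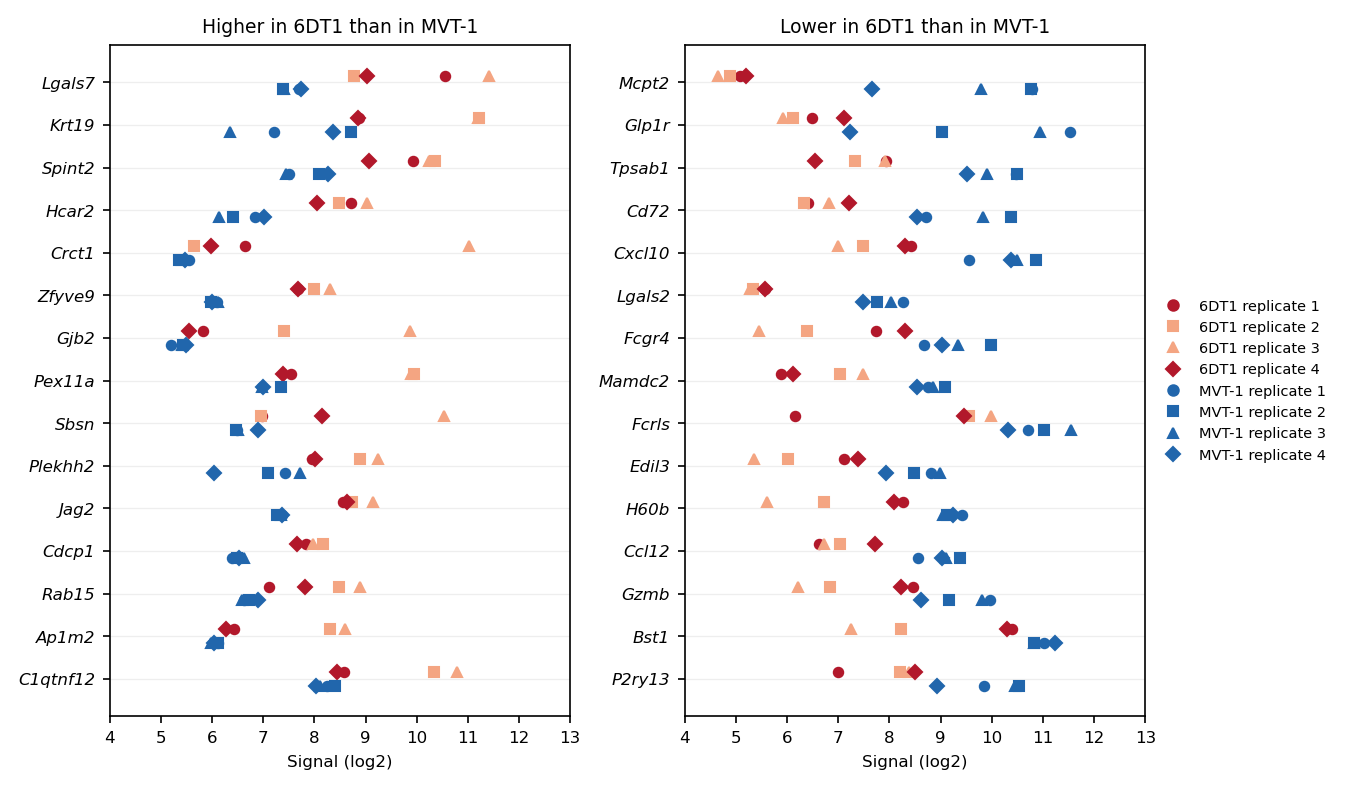
Signal (log2) of the 15 named genes that rose most and the 15 that fell most in 6DT1, among those called with all 4 tumors per model and with no overlap. Each point is 1 tumor, 6DT1 above and MVT-1 below the line of each gene. For Crct1, Gjb2, Pex11a and Ap1m2 the increase lies mostly in the orange tumors, while for Mcpt2, Tpsab1 and Lgals2 all 4 tumors of 6DT1 are far below MVT-1.

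The largest decrease in 6DT1 was in a mast cell protease. Mcpt2, a chymase typical of mucosal mast cells, was at 5.08, 4.89, 4.64 and 5.19 in 6DT1 replicates 1 to 4 and at 10.79, 10.77, 9.79 and 7.66 in MVT-1 replicates 1 to 4. All 6DT1 tumors were low, and replicate 4 of MVT-1 lay between them and the other 3. The difference was -4.80 on the log2 scale, 27.9-fold (SE 0.51, adjusted p = 4.93e-08), and it was called in all 3 fits. The 6DT1 values lay below every array's median of at least 6.76, so the fold is approximate.

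The tryptase Tpsab1 behaved likewise. It was at 7.93, 7.33, 7.91 and 6.54 in 6DT1 and at 10.48, 10.49, 9.91 and 9.52 in MVT-1, a difference of -2.67 (SE 0.30, adjusted p = 1.05e-07) that was also called in all 3 fits. The groups did not overlap for either protease.

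The other mast cell genes depended on which 6DT1 tumors were read. Of the 8 markers on the list, 2 were called lower with all 4 tumors and 5 with replicates 1 and 4, and none was higher. Beside these counts, 9.25% and 4.9% of all genes were called lower, and the median difference of the list was -0.81 and -1.83 against -0.02 and -0.0028 for all genes. The carboxypeptidase Cpa3 was at 7.15 and 5.71 in replicates 1 and 4 of 6DT1, at 9.74 and 10.65 in replicates 2 and 3, and at 9.95, 10.44, 9.40 and 9.09 in MVT-1. Against MVT-1, replicates 1 and 4 differed by -3.29 (SE 0.80, adjusted p = 0.0067), while all 4 gave -1.41 (adjusted p = 0.22). The chymase Mcpt4 (-2.33, adjusted p = 0.032) and the tryptase Tpsb2 (-1.34, adjusted p = 0.024) followed Cpa3 in the repeat. In the fat-rich replicates 2 and 3 of 6DT1, Cpa3 and Mcpt4 were thus high while Mcpt2 was low. The receptor subunits Fcer1a and Ms4a2 lay between 4.76 and 5.72 in all 8 tumors, below every array's median of at least 6.76. Proteases of the Mcpt and tryptase families share sequence, and cross-hybridisation between them was not tested.

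Mcpt2 lies in a protease cluster on chromosome 14 (RefSeq, GRCm38.p6) whose neighbours were low with all 4 tumors. Among all runs of 15 neighbouring genes, the run from Khnyn to Gzmb had the lowest median difference, -1.07 with all 4 tumors and -0.78 with replicates 1 and 4. In the first comparison 8 of its 15 genes were called lower, beside 9.25% of all genes, and in the repeat 2 were, beside 4.9%. None was called higher in either. The run was picked for its low median and holds Mcpt2 and Gzmb, so these counts are a description and not a test. The median signal of the run was 8.13, 6.13, 5.77 and 7.02 in 6DT1 and 9.0, 8.30, 8.65 and 7.07 in MVT-1, so that replicate 1 of 6DT1 was above replicate 4 of MVT-1.

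Macrophage genes were lower in 6DT1 for 7 of 12 markers. Of the 12 markers, 7 were called lower with all 4 tumors, beside 9.25% of all genes, and 6 with replicates 1 and 4, beside 4.9%. None was called higher in either, and the medians were -0.66 and -0.98. The scavenger receptor Cd163, picked after its values were seen, had the opposite sign without passing. It was at 7.56, 9.49, 9.52 and 9.23 in 6DT1 and at 6.72, 7.91, 6.96 and 8.82 in MVT-1, a difference of 1.35 (adjusted p = 0.1) that was 0.79 in the repeat (adjusted p = 0.56). The high-affinity antibody receptor Fcgr1 was at 7.85, 8.11, 8.19 and 8.75 in 6DT1 and at 9.35, 10.19, 10.05 and 9.25 in MVT-1, with no overlap and a difference of -1.48 (SE 0.26, adjusted p = 0.000145). The complement chains C1qb and C1qc fell by 0.93 and 1.02 (adjusted p = 0.0089 and 0.015). For C1qb, replicate 1 of 6DT1 was at 10.03, while its other 3 tumors were between 11.80 and 12.12 and MVT-1 between 12.22 and 12.68.

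The scavenger receptor Msr1 was lowest in the fat-rich tumors. It was at 9.64, 8.96, 8.22 and 10.79 in 6DT1 and between 10.95 and 11.35 in MVT-1. With all 4 tumors the difference was -1.74 (adjusted p = 0.0004), and with replicates 1 and 4 it was -0.93 (adjusted p = 0.07). The list score was -0.98 in replicate 1 of 6DT1, between -0.07 and 0.34 in its other 3 tumors, and between 0.22 and 0.67 in MVT-1, so that replicate 4 of 6DT1 lay within the range of MVT-1. None of the 12 markers passed when only the 8 tumors were fitted, beside 0.386% of all genes.

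Further genes of myeloid cells were among the largest decreases. Cd72, a receptor of B cells and macrophages, was at 6.42, 6.34, 6.83 and 7.21 in 6DT1 and at 8.71, 10.37, 9.83 and 8.53 in MVT-1 (-2.66, SE 0.29, adjusted p = 6.42e-08). The Fc receptor relatives Fcgr4 and Fcrls fell by 2.27 and 2.11 (adjusted p = 0.0009 and 0.019), and the purine receptor P2ry13 by 1.92 (adjusted p = 0.00036). Of these, Cd72, Fcrls and P2ry13 were called in the repeat as well, and Fcgr4 was not (-1.22, adjusted p = 0.11). Fcrls was at 6.16 in replicate 1 of 6DT1 and between 9.45 and 9.98 in the other 3, below the 10.32 to 11.55 of MVT-1. In the repeat, the lectin receptors Clec4a1 and Clec4a3 (-2.22 and -2.48, adjusted p = 0.00058 and 0.00037) and Ly86, the partner of a Toll-like receptor relative (-2.25, adjusted p = 0.00011), were among the largest decreases not yet named, and all 3 were lowest in replicate 1. Bst1, an ectoenzyme of myeloid and stromal cells, was at 10.40 and 10.30 in replicates 1 and 4, at 8.23 and 7.25 in replicates 2 and 3, and between 10.83 and 11.24 in MVT-1. It fell by 1.94 with all 4 tumors (adjusted p = 0.0046), and the repeat gave -0.63 (adjusted p = 0.44).

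A minority of the T and NK cell markers passed. Of 15, 4 were called lower with all 4 tumors, beside 9.25% of all genes, and 1 with replicates 1 and 4, beside 4.9%, and none was higher. All 15 had differences below 0 in both comparisons, with medians of -0.97 and -0.85. The NK receptor Ncr1, called in both, was at 5.78, 6.47, 6.00 and 6.10 in 6DT1 and at 6.91, 8.12, 7.34 and 7.32 in MVT-1 (-1.33, SE 0.27, adjusted p = 0.001). The granule protease Gzmb was at 8.47, 6.83, 6.22 and 8.23 in 6DT1 and at 9.97, 9.17, 9.82 and 8.62 in MVT-1. Its difference was -1.96 (adjusted p = 0.0018) with all 4 tumors and -1.04 (adjusted p = 0.17) with replicates 1 and 4. The pore protein Prf1 and the granule protein Nkg7 fell by 1.53 and 1.56 in the first comparison (adjusted p = 0.0032 and 0.028). In the repeat Prf1 gave -0.97 (SE 0.41, adjusted p = 0.14) and Nkg7 -1.64 (SE 0.61, adjusted p = 0.091), so that Nkg7 lost its call without a smaller difference. The granule protease Gzma (-0.17, adjusted p = 0.68) and the NK receptor Klrb1c (-0.06, adjusted p = 0.64), also picked after their values were seen, did not pass. The list score lay between -0.72 and -0.42 in the 4 tumors of 6DT1 and between -0.02 and 0.99 in MVT-1. The highest was replicate 2 of MVT-1.

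Interferon-induced genes were lower in 6DT1, with 10 of 16 called lower and none higher, beside 9.25% of all genes called lower. The median of the list was -0.99, and in the repeat 4 of 16 were called lower, beside 4.9%, at a median of -0.69. The list score was -0.99, -1.50, -1.42 and -1.13 in 6DT1 and -0.58, 0.16, 0.17 and -0.54 in MVT-1, so that the models did not overlap but 2 of the MVT-1 tumors lay nearer to 6DT1 than the others. The 4 genes that passed in both comparisons were Cxcl10, Ifit1, Ifit2 and Ifit3. The Ifit genes encode antiviral proteins that bind viral RNA, and Cxcl10 encodes a chemokine for activated T cells.

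The promoters of 3 of these genes hold the interferon-stimulated response element, the site of the Stat and Irf factors. The windows below come from RefSeq (GRCm38.p6), read in the direction of the gene, and each runs from 30 bases before its first match to 30 bases after its last. The first match begins 213 bases before the start of Cxcl10, 104 before that of Ifit1 and 156 before that of Ifit3. Capitals mark matches to the element, searched as TTTC, any 2 bases and TTTC again, or on the other strand as GAAA, any 2 bases and GAAA, and each window is shown because its gene passed in both comparisons.
Cxcl10, chr5:92349063-92349132, minus strand: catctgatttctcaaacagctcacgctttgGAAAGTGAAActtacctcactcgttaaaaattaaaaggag
Ifit1, chr19:34640755-34640843, plus strand: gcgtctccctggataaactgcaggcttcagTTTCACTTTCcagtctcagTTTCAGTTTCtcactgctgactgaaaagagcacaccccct
Ifit3, chr19:34583343-34583446, plus strand: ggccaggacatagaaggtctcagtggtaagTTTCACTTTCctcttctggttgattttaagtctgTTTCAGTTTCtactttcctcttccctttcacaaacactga
The element was found in the 250 bases before the start of 936 of 27025 genes with a promoter in the table (3.46%), on either strand, and in 8 of the 13 list members that had one. Ifit2 had no match in that window. A match is a description of the sequence and was not tested for binding.

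Cxcl10 had the largest difference of the list. It was at 8.43, 7.49, 7.0 and 8.31 in 6DT1 and at 9.55, 10.87, 10.49 and 10.39 in MVT-1, a difference of -2.52 or 5.71-fold (SE 0.33, adjusted p = 2.53e-06). All 40 tumors of the other 10 models were above the highest 6DT1 tumor. Ifit2 was at 7.28, 7.09, 7.49 and 7.33 in 6DT1 and at 8.14, 8.91, 9.15 and 8.04 in MVT-1, with the groups apart (-1.27, SE 0.20, adjusted p = 5.16e-05). Ifit1, also picked after its values were seen, was at 7.09, 6.22, 6.79 and 6.89 against 7.99, 8.52, 9.12 and 7.33 (-1.49, SE 0.30, adjusted p = 0.00085). Ifit3 overlapped, since replicate 3 of 6DT1 was at 8.33 and replicate 4 of MVT-1 at 7.73 (-1.53, adjusted p = 0.0028). Usp18, a brake on interferon signalling, fell by 1.41 with all 4 tumors (adjusted p = 0.00076) and was at 9.87 in replicate 1 of 6DT1, above the 9.54 of replicate 4 of MVT-1. The Ifit genes are close relatives, and the fit of the 8 tumors alone called none of the 16, beside 0.386% of all genes.

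Chemokine ligands moved both ways. Of 23, 6 were called lower and 1 higher with all 4 tumors, beside 9.25% and 4.74% of all genes, and 4 lower and 1 higher in the repeat, beside 4.9% and 4.2%. In each comparison 9 of the 23 had differences above 0. The list median was -0.14 and -0.05, and the latter became 0.02 after each array was centred on its median. The higher gene of the repeat was the neutrophil chemokine Cxcl5, which was picked after its values were seen. Cx3cl1, the membrane-bound chemokine for monocytes and NK cells, was at 9.53, 9.30, 8.88 and 9.38 in 6DT1 and at 10.88, 10.52, 10.81 and 10.41 in MVT-1 (-1.38, SE 0.27, adjusted p = 0.00058), and it was called in all 3 fits. Ccl12, a monocyte chemokine outside that list, was at 6.63, 7.03, 6.72 and 7.72 against 8.55, 9.39, 9.11 and 9.03 (-2.0, SE 0.29, adjusted p = 1.79e-05), also in all 3. Cxcl16, a scavenger receptor and chemokine, fell by 1.73 (adjusted p = 2.37e-05), and all 40 tumors of the other models lay above all of 6DT1. The higher gene of the first comparison, picked after its values were seen, was the stromal chemokine Cxcl12, at 9.62 and 10.13 in the fat-rich replicates 2 and 3, at 7.89 and 7.74 in replicates 1 and 4, and from 6.62 to 7.76 in MVT-1. Cxcl14 was lower in the repeat alone (-1.79, adjusted p = 0.0058), with 7.90 in replicate 4 of 6DT1.

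Tnf, the inflammatory cytokine of macrophages, was lower in all 4 tumors of 6DT1. It was at 6.79, 6.84, 6.61 and 6.83 in 6DT1 and at 7.60, 7.82, 7.62 and 7.41 in MVT-1 (-0.84, SE 0.17, adjusted p = 0.0011), was called in all 3 fits, and stood above the highest 6DT1 tumor in all 40 tumors of the other models. Il18 and Il15, which activate NK cells, fell by 1.07 and 0.72 with all 4 tumors (adjusted p = 0.01 and 0.015), and gave adjusted p = 0.49 and 0.16 in the repeat. For antigen presentation by MHC class II, 3 of 8 genes were called lower in both comparisons, beside 3.3% of all genes, namely H2-DMa (-1.08, adjusted p = 0.0059), H2-Ab1 (-0.78, adjusted p = 0.033) and Cd74 (-0.56, adjusted p = 0.041). For all 3, replicate 1 of MVT-1 lay within the range of 6DT1. These class II counts became 1 and 1 after quantile normalization, and 3 and 1 after each array was centred on its median. Of 10 genes of class I presentation, 3 were called lower with all 4 tumors (Tapbp, Psmb9 and Psmb10), beside 9.25% of all genes. None was in the repeat, beside 4.9%. Under those 2 scalings 1 and 2 were called lower with all 4 tumors. The differences were -0.50 and then -0.40 in the repeat for Tapbp, -0.54 and -0.52 for Psmb9, and -0.52 and -0.24 for Psmb10. No marker of neutrophils (11), B cells (7) or dendritic cells (9) passed in either comparison, beside 14.0% and 9.1% of all genes.

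Genes outside the immune lists set MVT-1 apart from 6DT1 and from the rest of the series. Lgals2, a galactose-binding lectin, was at 5.57, 5.33, 5.29 and 5.58 in 6DT1 and at 8.27, 7.77, 8.03 and 7.48 in MVT-1, a difference of -2.44 or 5.44-fold (SE 0.12, adjusted p = 1.2e-17). In the other 40 tumors it ranged from 5.16 to 6.05, so that all 44 remaining tumors were below all 4 of MVT-1. It was called in all 3 fits. The 6DT1 values lay below every array's median of at least 6.76, so the fold is approximate.

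The EGF-family ligand Epgn showed a second pattern of this kind. It was at 6.44, 5.61, 6.02 and 6.72 in 6DT1, at 7.83, 8.16, 7.10 and 7.98 in MVT-1 and at most 6.33 in the other 40 tumors. The difference was -1.57 (SE 0.18, adjusted p = 3.11e-07), and 6DT1 ranked next to MVT-1 among the 12 models.

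Mamdc2 and H60b were also higher in MVT-1 than in all 44 other tumors. Mamdc2, a secreted matrix protein, was at 5.88, 7.04, 7.49 and 6.11 in 6DT1 and at 8.75, 9.09, 8.85 and 8.53 in MVT-1 (-2.18, SE 0.28, adjusted p = 1.87e-06). H60b, a stress ligand for the NK receptor NKG2D, was at 8.27, 6.71, 5.60 and 8.09 against 9.42, 9.12, 9.04 and 9.24 (-2.03, SE 0.46, adjusted p = 0.0027), and the repeat gave -1.02 (adjusted p = 0.21).

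Glp1r, the receptor of the incretin GLP-1, had a wide range in MVT-1. It was at 6.49, 6.13, 5.91 and 7.11 in 6DT1 and at 11.52, 9.04, 10.94 and 7.22 in MVT-1, a difference of -3.27 or 9.65-fold (SE 0.45, adjusted p = 5.18e-06). Replicate 4 of MVT-1 and replicate 4 of 6DT1 were nearly level. Edil3, a secreted integrin ligand, fell by 2.08 (adjusted p = 0.0063), with 5.36 in replicate 3 of 6DT1 and 7.39 in replicate 4, just under the 7.93 of replicate 4 of MVT-1.

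A minority of the cell junction genes passed, and in both directions. The claudin Cldn9 was at 6.68, 6.77, 6.55 and 6.68 in 6DT1 and at 8.48, 8.08, 8.39 and 8.86 in MVT-1 (-1.78, SE 0.30, adjusted p = 0.00011), called in all 3 fits. Ocln, a component of the tight junction, fell by 0.83 (adjusted p = 0.025) and by 1.23 in the repeat (adjusted p = 0.006). Cldn1 was at 6.01 and 6.44 in replicates 1 and 4, at 9.34 and 11.43 in the gland-rich replicates 2 and 3, and from 8.06 to 8.87 in MVT-1, so that it was lower in the repeat (-2.23, adjusted p = 0.00022) and not called with all 4 tumors. Of 15 junction genes, 2 were called higher (Cldn4 and Cldn7) and 2 lower in the first comparison, beside 4.74% and 9.25% of all genes. In the repeat 0 were higher and 3 lower, beside 4.2% and 4.9%.

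The largest increase in 6DT1 was in Lgals7. This epithelial lectin of stratified tissue was at 10.55, 8.78, 11.42 and 9.03 in 6DT1 and at 7.70, 7.39, 7.42 and 7.75 in MVT-1, a difference of 2.38 or 5.21-fold (SE 0.33, adjusted p = 5.18e-06). With replicates 1 and 4 the difference was 2.23 (adjusted p = 1.67e-05). The highest values were in replicates 3 and 1, of which the first was rich in fat genes and the other poor in them. Skin genes differed between these 2 tumors in both directions. Krt1 and Lor were at 10.95 and 11.16 in replicate 3 and at 5.68 and 5.59 in replicate 1. The skin envelope gene Sprr1b was at 6.91 in replicate 3 and at 10.70 in replicate 1.

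Zfyve9 and Spint2 were lower in MVT-1 than in all other tumors. Zfyve9 encodes SARA, an endosomal protein that brings Smad proteins to the TGF-β receptor. It was at 7.67, 8.0, 8.30 and 7.68 in 6DT1 and at 6.10, 5.97, 6.12 and 5.99 in MVT-1 (1.87, SE 0.15, adjusted p = 9.2e-11), and the lowest of the other 40 tumors was at 7.21. Spint2, an inhibitor of membrane serine proteases, was at 9.93, 10.37, 10.24 and 9.06 in 6DT1 and at 7.50, 8.09, 7.45 and 8.26 in MVT-1 (2.08, SE 0.21, adjusted p = 2.56e-08), and the lowest of the other 40 was at 8.43. Both held in the repeat, and Zfyve9 was called in all 3 fits.

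Jag2, Hcar2 and Cdcp1 completed the named genes that were higher in all 3 fits. The Notch ligand Jag2 was at 8.55, 8.73, 9.15 and 8.63 in 6DT1 and at 7.37, 7.27, 7.34 and 7.37 in MVT-1 (1.43, SE 0.18, adjusted p = 1.87e-06). The receptor of niacin and ketone bodies, Hcar2, was at 8.72, 8.48, 9.02 and 8.05 against 6.83, 6.41, 6.14 and 7.02 (1.97, SE 0.31, adjusted p = 4.66e-05). Cdcp1, a transmembrane substrate of Src kinases, was at 7.84, 8.17, 7.98 and 7.66 against 6.38, 6.48, 6.63 and 6.52 (1.41, SE 0.27, adjusted p = 0.0005). The groups did not overlap for any of these 3 genes.

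**Figure D4:**
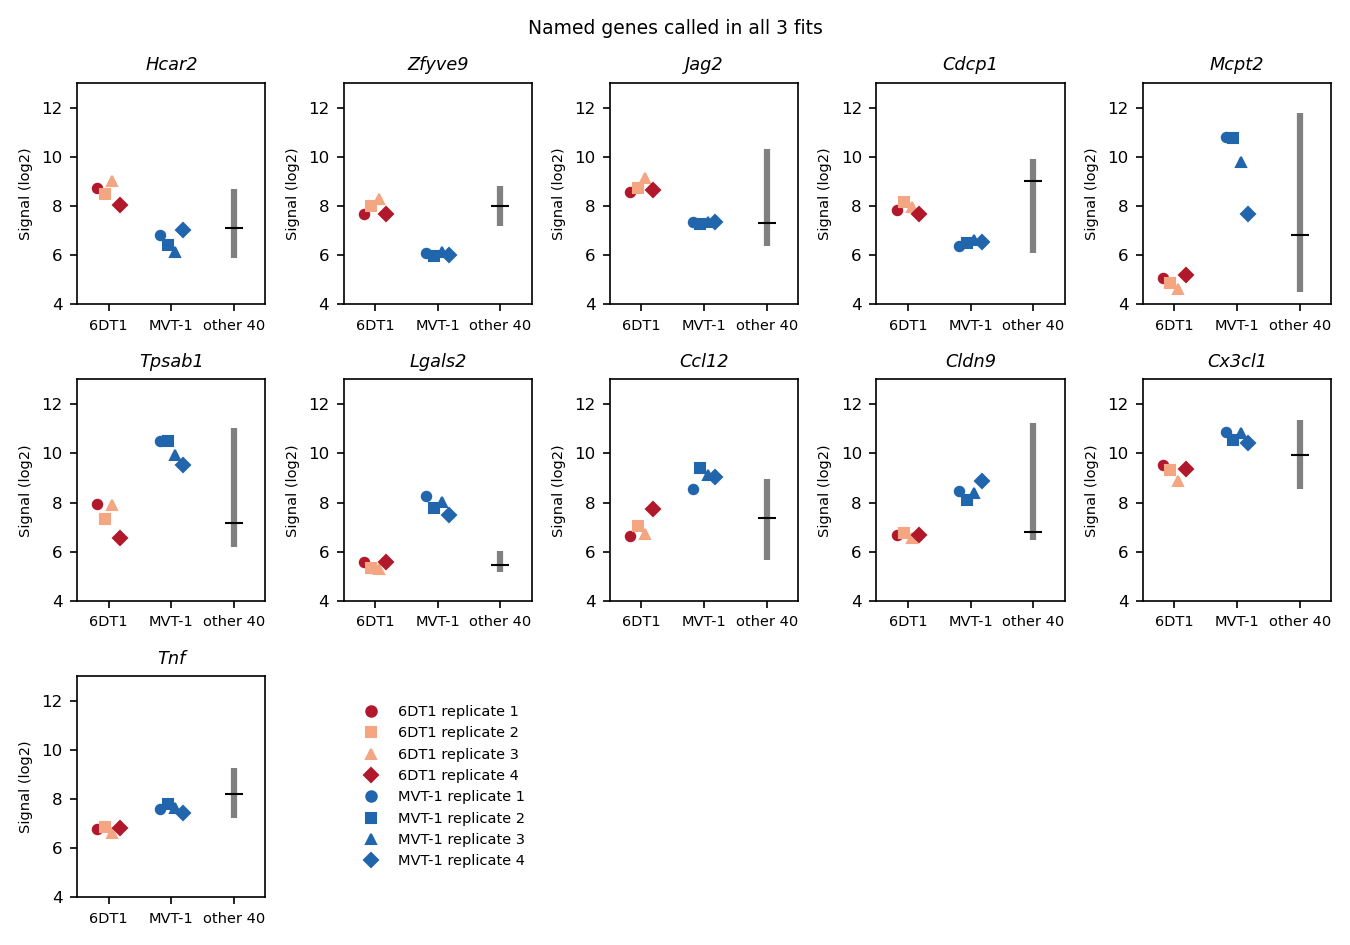
Signal (log2) of the named genes called with all 4 tumors, with 6DT1 replicates 1 and 4, and with only the 8 tumors in the fit. Points are tumors of 6DT1 and MVT-1, the grey bar is the range of the 40 tumors of the other 10 models and the black line their median. Zfyve9 in MVT-1 is below, and Lgals2 in MVT-1 above, the whole grey range.

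The remaining large increases in 6DT1 were highest in replicates 2 or 3. Of the 15 leading increases, 6 passed in the repeat, and of the 15 leading decreases, 10 did. Krt19, a keratin of simple epithelium, was at 8.87, 11.23, 11.20 and 8.86 in 6DT1 and at 7.21, 8.72, 6.36 and 8.37 in MVT-1, which gave 2.37 (adjusted p = 0.025) with all 4 tumors and 1.20 (adjusted p = 0.45) in the repeat. Crct1, a gene of the cornified skin, was at 11.02 in replicate 3 and at most 6.65 in the other 7 tumors. The gap junction gene Gjb2 was at 7.41 and 9.87 in replicates 2 and 3, and at 5.83 and 5.55 in replicates 1 and 4, against at most 5.50 in MVT-1. Pex11a, a peroxisome gene, was at 9.94 and 9.89 in replicates 2 and 3 and at 7.54 and 7.38 in the others. Sbsn, a skin protein, was at 10.53 in replicate 3 and at 8.15 in replicate 4. With all 4 tumors these genes differed by 1.87 for Crct1, 1.77 for Gjb2, 1.61 for Pex11a and 1.56 for Sbsn (adjusted p = 0.037, 0.015, 0.00475 and 0.015), and none of the 4 passed in the repeat. Plekhh2, Rab15, Ap1m2 and C1qtnf12 differed by 1.46, 1.37, 1.34 and 1.34 (adjusted p = 0.012, 0.0021, 0.021 and 0.021) and did not pass in the repeat.

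Replicates 1 and 4 alone gave further large differences from MVT-1. Serpinb2, an inhibitor of plasminogen activators, was at 9.99 and 11.66 in replicates 1 and 4, at 6.25 and 8.13 in replicates 2 and 3, and at 7.47, 6.51, 5.63 and 8.57 in MVT-1. The repeat gave a difference of 3.78 or 13.8-fold (SE 0.82, adjusted p = 0.0023). Nos2, the inducible nitric oxide synthase, was at 10.34 and 10.86 in replicates 1 and 4, at 7.31 and 6.83 in replicates 2 and 3, and at 8.76, 8.20, 7.08 and 9.92 in MVT-1 (2.11, SE 0.63, adjusted p = 0.028). Ptprn, a receptor-like phosphatase of secretory granules, and the noncoding RNA Vaultrc5 had the same shape, with differences of 2.11 (adjusted p = 1.81e-05) and 2.35 (adjusted p = 1.81e-06). The acute-phase protein Saa3 (2.84, adjusted p = 0.018) and the skin envelope gene Sprr1b (2.19, adjusted p = 0.0055) were also higher. The nuclear receptor gene Nr1h5 was at 8.57 and 8.62 in replicates 1 and 4 and at 6.56, 6.72, 6.89 and 7.42 in MVT-1 (1.70, SE 0.13, adjusted p = 2.66e-11), but at 5.2 in replicate 3. Lepr, the leptin receptor, was at 7.70, 6.11, 7.30 and 8.24 in 6DT1 and at 6.22, 5.52, 5.74 and 5.18 in MVT-1. It was called with all 4 tumors (1.67, adjusted p = 0.00036) and in the repeat (2.30, adjusted p = 1.71e-05). The surface peptidase Mme was lower in the repeat (-2.80, adjusted p = 0.027), at 5.64 and 5.47 in replicates 1 and 4 against 10.43 and 10.53 in replicates 2 and 3 and a range of 6.45 to 9.92 in MVT-1.

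Myc, the oncogene of the MVT-1 founder mouse, was bright in both models. It was at 12.87, 11.91, 10.35 and 12.79 in 6DT1 and at 12.65, 12.57, 12.65 and 12.51 in MVT-1, so that replicates 1 and 4 of 6DT1 were above all MVT-1 tumors and replicates 2 and 3 below them. The difference did not pass with all 4 tumors (-0.62, SE 0.25, adjusted p = 0.086; exact permutation p = 0.43) or in the repeat (0.23, adjusted p = 0.19). Its partner Max was lower in both comparisons, at 10.25 to 10.53 in 6DT1 against 10.71 to 10.83 in MVT-1 (-0.42, SE 0.08, adjusted p = 0.00064). Of 22 Myc target genes, 1 was called lower with all 4 tumors (the RNA modification enzyme Dkc1), beside 9.25% of all genes. In the repeat 2 were called higher, the nucleotide synthesis enzyme Cad (0.76, adjusted p = 0.0015) and the nucleolar protein Ncl (0.48, adjusted p = 0.0016). Beside these 2, 4.2% of all genes were higher in the repeat. After quantile normalization 6 of the 22 were higher there, beside 1231 of all 19938 genes.

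Vegfa, the other transgene of that mouse, was at 11.05, 10.60, 10.60 and 11.29 in 6DT1 and at 10.97, 9.95, 10.37 and 10.88 in MVT-1. It did not pass (0.34, SE 0.24, adjusted p = 0.35; exact permutation p = 0.29). Whether the probes read the transgene RNA is not given in the sources used here. None of the 10 genes of the VEGF family and its receptors passed with all 4 tumors, beside 14.0% of all genes. In the repeat 1 was lower, beside 4.9%. This was the coreceptor Nrp1 (-1.17, adjusted p = 0.047), which did not pass after quantile normalization or centring on the median. Of 13 endothelial markers, 3 were higher with all 4 tumors, beside 4.74% of all genes, and none in the repeat, beside 4.2%. Those 3, Tie1, Vwf and Egfl7, were highest in replicates 2 and 3, as Vwf shows with 9.59 and 9.52 there, 8.23 and 7.77 in replicates 1 and 4, and 7.65 to 8.10 in MVT-1.

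Of the 3 TGF-β ligands, Tgfb1 was lowest in replicates 2 and 3 of 6DT1. It was at 11.05, 10.14, 9.86 and 11.12 in 6DT1 and at 11.29, 11.10, 11.16 and 11.22 in MVT-1, the model with the highest mean of all 12. The difference with all 4 tumors was -0.65 (SE 0.17, adjusted p = 0.007), and with replicates 1 and 4 it was -0.11 (SE 0.13, adjusted p = 0.72). Tgfb2 (-0.13, adjusted p = 0.85) and Tgfb3 (-0.43, adjusted p = 0.11) did not pass. Tgfb3 was at 10.30, 11.10, 10.40 and 10.47 in 6DT1 and at 11.11, 10.99, 11.12 and 10.77 in MVT-1, and in the repeat it gave -0.61 (SE 0.22, adjusted p = 0.071) without overlap. Exact permutation tests of the 4 tumors against 4, which cannot go below p = 0.0286, gave p = 0.057 for Tgfb1, 0.83 for Tgfb2 and 0.086 for Tgfb3. Ppib, a housekeeping gene for such measurements, was at 12.16, 12.07, 12.34 and 12.28 in 6DT1 and at 12.55, 12.42, 12.50 and 12.48 in MVT-1 (-0.27, SE 0.07, adjusted p = 0.0055; exact permutation p = 0.0286). Adjusted over the 6 exact tests, which also covered Myc and Vegfa, all values were at least 0.17.

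The receptor Tgfbr1 and the signal carriers Smad2 and Smad3 fell by 0.45, 0.25 and 0.45 with all 4 tumors (adjusted p = 0.03, 0.032 and 0.031), which with Tgfb1 made 4 of 12 genes called lower, beside 9.25% of all genes. That count became 1 after quantile normalization and 2 after each array was centred on its median. None of the 12 passed in the repeat, where Tgfbr1 gave -0.40 (adjusted p = 0.17), Smad2 -0.28 (adjusted p = 0.052) and Smad3 -0.16 (adjusted p = 0.62), so that Smad2 and Tgfbr1 differed by about as much as before. The matrix protein Tgfbi, a TGF-β target, was lower in both (-0.79, adjusted p = 0.0025, and -0.85, adjusted p = 0.011), at 10.76, 11.17, 11.58 and 11.77 in 6DT1 and at 12.03 to 12.21 in MVT-1. Of the 15 target genes, 3 were called lower in the first comparison (Tgfbi, Ccn1 and Tgif1), beside 9.25% of all genes. In the repeat 2 were (Tgfbi and Id2), beside 4.9%, and none was higher in either. The 3 became 2 after quantile normalization and stayed 3 after each array was centred on its median.

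Proliferation and lipid synthesis genes passed only with all 4 tumors. Of 19 proliferation genes, 5 were lower with all 4 tumors, beside 9.25% of all genes, and 0 in the repeat, beside 4.9%. The 5 became 2 after quantile normalization and 1 after each array was centred on its median. The list score was -0.94 and -1.46 in replicates 2 and 3, -0.25 and 0.05 in replicates 1 and 4, and -0.36 to -0.05 in MVT-1. Of 16 genes of cholesterol and fatty acid synthesis, 4 were higher with all 4 tumors, beside 4.74% of all genes. In the repeat 0 were, beside 4.2%. Hmgcs1, an early enzyme of cholesterol synthesis, was at 9.54, 10.28, 10.28 and 9.30 in 6DT1 and at 8.56, 8.76, 9.10 and 9.22 in MVT-1 (0.94, SE 0.18, adjusted p = 0.00064). With the adipocyte score as a covariate in the fit of 48 tumors, 2472 genes were called, 2143 of them in the direction called without it, and 24 of the 112 named genes lost their call, among them Tgfbr1, Smad2, Smad3, Psmb9 and Psmb10. Hmgcs1 and Tgfb1 passed there too. The glycolytic enzyme Hk2 was higher in the repeat (1.06, adjusted p = 0.012), at 10.92 and 10.53 in replicates 1 and 4 against 9.22 to 10.24 in MVT-1.

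The Hox genes, which hold positional identity in a cell, were higher in 6DT1 for 9 of 19 and lower for 1, beside 4.74% and 9.25% of all genes. In the repeat 2 were higher and 1 lower, beside 4.2% and 4.9%, and the list median went from 0.51 to 0.13. The list score was 0.53 and 0.63 in the fat-rich and gland-rich replicates 2 and 3, -0.02 and 0.10 in replicates 1 and 4, and from -0.20 to -0.02 in MVT-1. In each comparison 16 of the 19 genes had differences above 0. Hoxa3 was at 6.64, 6.26, 6.16 and 6.62 in 6DT1 and at 5.69, 5.95, 5.82 and 5.67 in MVT-1 (0.64, SE 0.16, adjusted p = 0.0053). Hoxb6 was at 6.34, 6.69, 6.52 and 6.39 against 5.90, 6.10, 5.94 and 5.96 (0.51, SE 0.08, adjusted p = 8.23e-05). Its neighbour Hoxb5 went the other way, with -0.35 (adjusted p = 0.013) and -0.52 in the repeat (adjusted p = 0.001). Hoxa3 and Hoxb6 lay below the median of every array in all 8 tumors. Hoxa7 was higher with all 4 tumors (0.62, adjusted p = 0.0053) and gave 0.30 in the repeat (adjusted p = 0.29).

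Genes of chromosome 15 were lower in 6DT1 along its whole length. Of the 748 tested genes on chromosome 15, 164 (21.9%) were called lower in 6DT1 and 18 (2.41%) higher, while on each of the other 19 chromosomes examined the share lower was between 6.9% and 10.2%. In the repeat 97 (13%) were lower and 6 higher, against shares lower of 3.09% to 5.87% elsewhere. With only the 8 tumors in the fit, 13 were lower and 0 higher, beside 0.326% and 0.0602% of all genes. Over the 403 of its genes brighter than the median gene, the median difference was -0.25 with all 4 tumors and -0.21 in the repeat, against -0.11 and -0.05 for the 9969 such genes of the genome.

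Every tumor of 6DT1 showed it. Relative to the mean of MVT-1 and to the genome in the same tumor, the bright genes of chromosome 15 were at -0.18, -0.13, -0.13 and -0.17 in 6DT1 replicates 1 to 4 and at 0.02, -0.07, 0.06 and -0.02 in MVT-1 replicates 1 to 4. The groups did not overlap, and the shift was somewhat larger in replicates 1 and 4 than in the fat-rich replicates 2 and 3. The shift ran along the chromosome, since in order of position its first 134, next 134 and last 135 bright genes gave medians of -0.24, -0.27 and -0.25 with all 4 tumors. Across the 12 models, set against the mean of all of them, MVT-1 was at 0.10 and 6DT1 at -0.05, and the others ranged from -0.12 in R3T to 0.15 in EMT-6.

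The shift was broad, since with all 4 tumors 69.0% of the 403 bright genes of chromosome 15 lay below the genome median. The genes named next are single examples with varied roles, picked after their values were seen. Of the 748 genes, 55 were lower in both comparisons without overlap, while 3.3% of all genes were lower in both, with or without overlap. They included Fam83a (-1.44, adjusted p = 8.5e-06), the chromatin remodelling subunit Chrac1 (-1.01, adjusted p = 5.57e-07) and the transcription elongation cyclin Ccnt1 (-0.94, adjusted p = 6.42e-08). The leukocyte genes Parvg, Il2rb, Bin2 and Rac2 were also among them. Lgals2 is on the same chromosome. So is Myc, which did not pass. On this chromosome 2 genes were higher in both comparisons, beside 1.41% of all genes. These were the kinase Mapk12 (0.98, adjusted p = 9.36e-05) and the mannose enzyme Pmm1 (0.86, adjusted p = 0.002).

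**Figure D5:**
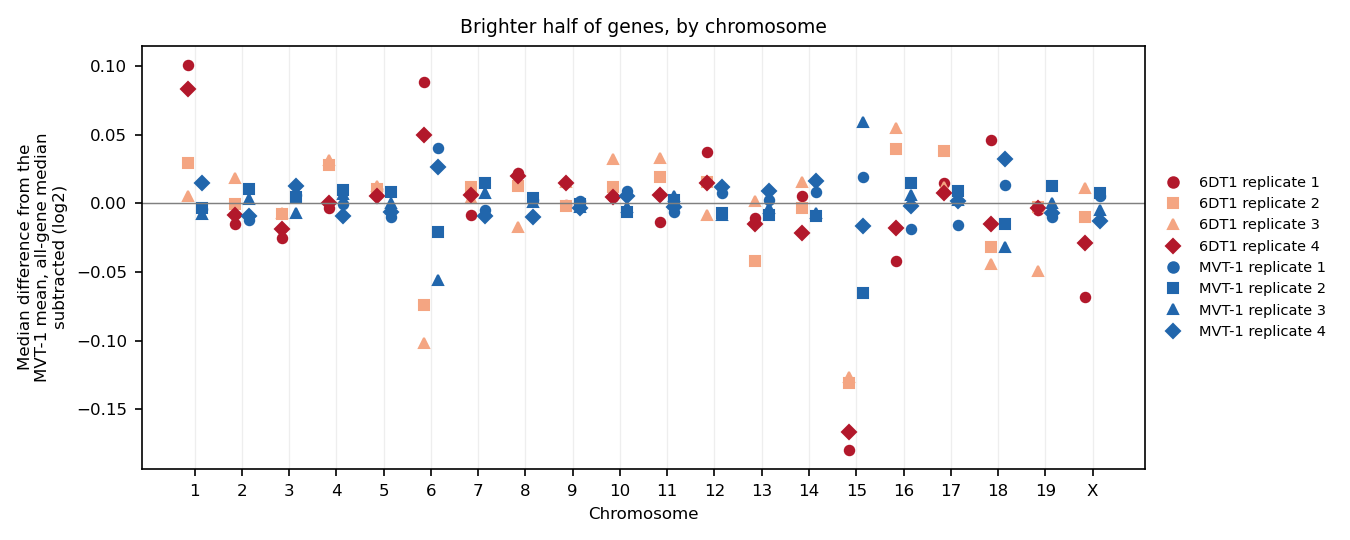
For each chromosome, the median over its genes of above-median brightness of the log2 difference from the MVT-1 mean, after subtraction of the same median over all chromosomes, 1 point per tumor. The 4 tumors of 6DT1 lie between -0.18 and -0.13 on chromosome 15, below all MVT-1 tumors, and replicates 1 and 4 of 6DT1 lie above the rest on chromosome 1.

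Chromosome 1 was higher in replicates 1 and 4. In the repeat 104 (9.27%) of its 1122 genes were called higher and 41 (3.65%) lower, and with all 4 tumors 70 (6.24%) were higher and 78 (6.95%) lower. The share higher in the repeat was between 0.802% and 6.82% on the other 19 chromosomes, and the highest of these was chromosome 6, with 75 of 1099 genes higher and 34 lower. The bright genes of chromosome 6 were at 0.09 and 0.05 in replicates 1 and 4, at -0.07 and -0.10 in replicates 2 and 3, and between -0.06 and 0.04 in MVT-1. On chromosome 1 the shift was in the last 189 of its bright genes, from Edem3 onward, at 0.33 and 0.25 in replicates 1 and 4, at 0.05 and -0.03 in replicates 2 and 3, and between -0.02 and 0.01 in MVT-1. In the repeat 54 of these 189 were called higher and 7 lower, beside 4.2% and 4.9% of all genes. This stretch was picked after its values were seen. No cause of any chromosome's shift was tested.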

How the data were processed

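Tumor RNA (100 ng) was amplified, labelled and hybridised to Affymetrix Mouse 1.0ST arrays. The deposited values are log2 signals per transcript cluster, already normalized by the authors, and the software is not given in the sources used here. Array medians lay between 6.76 and 6.99, and the number of arrays limits the precision. Of 35556 clusters, 21789 named 1 gene, 1621 several and 12146 none in the platform annotation, and for 999 genes with over 1 cluster the one with the highest mean over 48 arrays was kept, which left 19938 genes. Chromosomes came from RefSeq (GRCm38.p6), which held 19856 of them.

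Differences are 6DT1 minus MVT-1 from limma 3.58.1 in R 4.3.3, with 1 mean per model, eBayes and Benjamini-Hochberg adjustment over all genes (adjusted p under 0.05), using all 48 tumors. The repeat left out replicates 2 and 3 of 6DT1. Further fits used only the 8 tumors compared, other scalings, filters, weights and covariates, the methods' t-test, and each tumor left out. On simulated data with 200 of 19938 genes changed by 1 log2 unit, 90% were recovered with 4 against 4 tumors and 79.5% with replicates 1 and 4. With a change of 0.5 unit 63.5% and 52% were recovered. The simulated tumors varied independently, with the same spread per gene in every model. The real spread was 0.185 in 6DT1 and 0.0929 in MVT-1, so these shares do not describe the tumors compared. The tumors are separate by their labels, without a statement that each came from its own host. The p-values of the first comparison and the repeat rest on a spread between tumors shared by all 12 models. They do not measure the spread of 6DT1 itself, which for Myc was a standard deviation of 1.17 beside an SE of 0.25.

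The text names the 15 largest increases and decreases without overlap from the first comparison, the 8 further ones from the repeat, up to 4 genes per list with the smallest p, and Tgfb1, Tgfb2, Tgfb3, Ppib, Myc and Vegfa, leaving out predicted symbols, and other genes are named as chosen after their values were seen. The tumors compared and the 44 gene lists were chosen with earlier results of these data known. A list is described by its counts and median only, and its score in a tumor is the mean over its genes of the signal minus the gene's mean over 48 tumors.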

Additional observations from a re-analysis of the deposited data

Results flagged for a closer look

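Among 98 groups of 4 tumors examined, covering the leading genes, the 6 genes of the methods and the cell type lists, 5 tumors stood apart from the other 3 of their model by Dixon's criterion for 4 values. Chance flags about 1 group in 20. Fcrls was at 6.16 in 6DT1 replicate 1, and the nearest tumor of that model was at 9.45. Skeletal muscle genes had a score of 1.01 in 6DT1 replicate 3, against -0.26 in the nearest tumor. Pex11a was at 7.35 in MVT-1 replicate 2, against 6.99, and Sbsn at 6.91 in MVT-1 replicate 4, against 6.51. The milk protein score of MVT-1 replicate 3 was -0.51, against -0.34.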

How the results depend on the processing

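With all 4 tumors of each model the count of 2791 genes fell to 77 when only these 8 tumors were fitted, to 62 by the methods' t-test after adjustment, and to 0 by limma with the replicate block and only these 8 tumors, where 3392 genes had an unadjusted p under 0.05. With the repeat, 1815 became 218 when only the tumors of the pair were fitted, 5 by the methods' t-test after adjustment and 4252 without adjustment. Leaving out each tumor in turn gave 1426 to 4462 genes for all 4 tumors and 178 to 1999 for the repeat. The counts moved by over 1.5 times without 6DT1 replicate 1 (4378), replicate 2 (1426) or replicate 4 (4462) or MVT-1 replicate 1 (1847) or replicate 3 (1654), and in the repeat without 6DT1 replicate 1 (178) or MVT-1 replicate 2 (1128). A lone 6DT1 tumor in the repeat was assumed to vary like the other models. The remaining alternatives gave 1900 to 2847 genes, with 3547 by the t-test without adjustment, and 1515 to 2403 in the repeat. The 1900 came from array weights with all 4 tumors, and 1314 of them were among the 2791 in the same direction. Under these weights 56 of the named genes kept their result, 55 were weaker and 1 was stronger, so a similar count did not mean the same genes.

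Replicate numbers were used as names only, since not every same-numbered pair correlated above 0.1. Deviations of same-numbered tumors from their model means correlated at 0.35, 0.50, -0.03 and 0.24, replicates 1, 2 and 4 of 6DT1 correlated best with their own number and replicate 3 did not. With the block and only these 8 tumors, the genes called in all 3 fits lost that call, and the fit of 48 tumors with the replicate block called 2732 and 1669 genes. Of 112 named genes, the one that changed sign was Tgfb2, which ranged from -0.35 to 0.22 over the tumors left out and was at 0.22 without MVT-1 replicate 3. In the fit of the 8 tumors alone, 97 of the 112 lost their call. The 112 include Tgfb2, Tgfb3, Myc and Vegfa, which had no call to lose. On chromosome 15 the shift relative to the genome stayed between -0.18 and -0.12 in every alternative.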
